A study of Rattus norvegicus with 8 samples.

Results

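The kinetochore and spindle checkpoint set comprised 10 listed rat genes, 8 of which had a matched probe among the 15159 genes that could be named on the arrays. The 8 were Cenpt, Ndc80, Nuf2, Spc25, Cenpf, Bub1, Ttk and Mad2l1. Cenpf and Bub1 had 2 probes each, so the set was read by 10 of 30350 probes. Cenpe, a kinesin motor of the kinetochore, and Bub1b, the checkpoint protein BubR1, had no probe matched by accession. The genes were selected on their role and on their difference between monocrotaline and saline on these same arrays, so that difference is described here and not tested.

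Endothelial cells were taken from the lungs of Sprague-Dawley rats, 8 to 10 weeks old, at 5 days after 1 of 2 subcutaneous injections. One group of 4 samples came from rats that had received monocrotaline at 60 mg/kg, a plant alkaloid that injures lung vessels and leads to pulmonary hypertension, and the other group of 4 came from rats given saline. Cells were captured from the collagenase digest of whole lung on magnetic beads carrying antibody to CD31, which some leukocytes and platelets carry besides endothelium, and their RNA was taken with no culture step. Each sample, amplified from 10 ng of RNA, was read on 1 array of 1 colour, and the comparison asks how gene expression of lung endothelium differs early in this disease model.

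Kinetochores are the protein plates that assemble on centromeric chromatin and hold chromosomes to spindle microtubules. The inner plate rests on nucleosomes with the histone variant CENP-A, and the outer plate, built on the KNL1, MIS12 and NDC80 complexes, grips the microtubules. Kinetochores without microtubules recruit the spindle checkpoint proteins, which hold back CDC20 and with it the onset of anaphase. Most genes of these complexes are transcribed mainly in late S phase, G2 and mitosis, so in lung endothelium, where few cells divide, their transcripts are usually scarce.

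The promoters of the members are shown because periodic late cell cycle transcription is known to act through a short promoter element, the cell cycle genes homology region (CHR), often near CCAAT boxes. The CHR is bound by the MuvB complex and the CCAAT box by NF-Y. Promoter sequences from RefSeq (build GRCr8, from 250 bases before to 50 bases after the gene start) were found for 9 of the 10 genes, Cenpt being the exception. Searched on both strands, the CHR letters TTTGAA or TTCGAA stood in 7 of the 9, against 19.7% of all 33469 promoters in the table and 18.5% of its 21851 promoters of protein-coding genes. The letters CCAAT stood in 4 of the 9, against 37.5% of all promoters. Spc25, Cenpf and Ttk held both, as did 7.95% of all promoters. The E2F letters TTTCCCGC, TTTGGCGC, TTTCGCGC or TTTGCCGC stood in 0 of the 9 (2.14% of all promoters), and the TATA letters TATAAA in 0 of the 9 (14.2%). None of the matches in these promoters overlapped another. Of 8 CHR matches, 7 were centred within 60 bases of the gene start. Bub1 had no match to any of the 4 motifs, Cenpe had CCAAT letters only, and Bub1b had 2 CHR matches. A match in letters is a description of the sequence, and no factor binding was measured. The 6 measured members with a CHR match are printed below 5′ to 3′ on the strand of the gene, from 140 bases before the gene start to 40 bases after it. CHR and CCAAT letters are in capitals, written TTCAAA and ATTGG where the match lies on the opposite strand. The stretches are chr9:118887490-118887669 (minus strand), chr13:84255559-84255738 (minus), chr3:74396679-74396858 (minus), chr13:103760847-103761026 (minus), chr8:93634499-93634678 (plus) and chr4:97236369-97236548 (plus).
Ndc80: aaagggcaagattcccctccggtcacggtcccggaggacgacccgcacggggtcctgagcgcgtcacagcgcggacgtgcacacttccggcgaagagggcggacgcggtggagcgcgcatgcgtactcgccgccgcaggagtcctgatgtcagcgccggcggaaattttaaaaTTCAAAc
Nuf2: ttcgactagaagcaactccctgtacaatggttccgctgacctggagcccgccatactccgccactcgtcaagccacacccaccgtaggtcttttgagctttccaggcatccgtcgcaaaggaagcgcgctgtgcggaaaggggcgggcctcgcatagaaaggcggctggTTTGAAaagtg
Spc25: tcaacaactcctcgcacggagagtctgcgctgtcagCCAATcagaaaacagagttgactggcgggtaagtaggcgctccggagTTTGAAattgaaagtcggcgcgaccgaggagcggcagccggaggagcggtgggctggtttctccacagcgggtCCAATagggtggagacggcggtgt
Cenpf: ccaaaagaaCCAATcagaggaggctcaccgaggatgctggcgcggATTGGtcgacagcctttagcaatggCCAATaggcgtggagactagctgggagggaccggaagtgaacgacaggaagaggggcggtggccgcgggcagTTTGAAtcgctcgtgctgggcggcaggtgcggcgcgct
Ttk: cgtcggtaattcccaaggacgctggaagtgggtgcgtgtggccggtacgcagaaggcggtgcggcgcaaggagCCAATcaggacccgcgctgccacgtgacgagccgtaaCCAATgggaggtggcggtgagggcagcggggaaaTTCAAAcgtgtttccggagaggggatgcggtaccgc
Mad2l1: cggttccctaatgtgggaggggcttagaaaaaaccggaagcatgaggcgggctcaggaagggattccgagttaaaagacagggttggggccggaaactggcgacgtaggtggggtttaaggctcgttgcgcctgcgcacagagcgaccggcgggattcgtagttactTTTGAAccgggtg
Among the printed stretches, those of Ndc80, Nuf2 and Mad2l1 carried their CHR after the gene start and no CCAAT box, that of Spc25 carried it before the start between a pair of CCAAT boxes, and those of Cenpf and Ttk carried it just after the start with CCAAT boxes upstream.

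**Figure D1:**
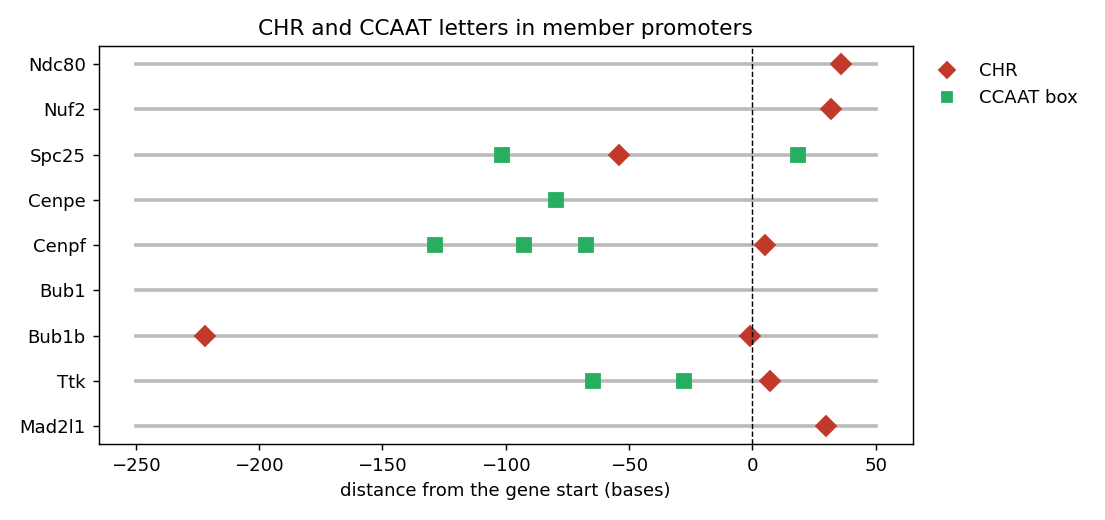
Positions of CHR (diamonds) and CCAAT (squares) letters in the 9 member promoters, in bases from the gene start (dashed line). Grey lines span the 250 bases before and 50 bases after it that were searched. Of 8 CHR matches, 7 lie within 60 bases of the start, and Bub1 has neither motif.

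Of the 58717 non-control spots, between 70.8% and 77.7% were well above background on an array, and the number of arrays limits the precision of every value. All 12 endothelial markers with a probe, Pecam1 and Cdh5 among them, were well above background on all 8 arrays. So were 5 of 5 alveolar type 2, 4 of 4 erythroid and 3 of 3 B and plasma cell markers. The same held for 15 of 16 T and NK cell, 6 of 7 macrophage and monocyte and 5 of 6 fibroblast markers. It also held for 5 of 6 airway and 3 of 4 neutrophil markers. Detection alone therefore cannot settle the labelled cell type. All 8 arrays lay on 1 slide, the monocrotaline arrays in row 2 and the saline arrays in row 1, so slide row and group cannot be told apart. Signals are given as log2 of the processed signal minus the 75th percentile of the array, here called the scaled log2 signal. Levels of different probes are not compared, since probes differ in how strongly they bind.

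All 10 probes of the 8 measured members were higher in the monocrotaline samples, and for each of them the lowest monocrotaline array lay above the highest saline array. Such a separation was seen for 3.53% of all 30350 probes and, for the brightest probe per gene, in 4.56% of the 19137 genes tested. The contrast helped choose the genes, so nothing is read from that count. Over the brightest probe of each member the difference (monocrotaline minus saline) had a median of 1.85 on the log2 scale and ran from 1.14 to 2.98. The median over all tested genes was -0.026. In RNA from bulk samples, more dividing cells and more of these transcripts per cell cannot be told apart.

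Cenpt encodes CENP-T (chromosome 19), an inner kinetochore protein that binds centromeric DNA and recruits the NDC80 complex through its tail. Its scaled log2 signals were 0.11, -0.24, -0.84 and 0.89 on monocrotaline replicates 1 to 4, against -2.89, -2.62, -2.23 and -4.25 on saline replicates 1 to 4. The difference was 2.98 ± 0.49 (SE, n = 4 per group), a 7.88-fold one and the widest among the members. The saline arrays also differed among themselves, with an SD of 0.88 and saline replicate 4 lowest, yet the groups did not overlap.

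The NDC80 complex is a rod that joins kinetochore to microtubule, and 3 of its 4 subunits were among the members. Ndc80, the subunit that with Nuf2 forms the microtubule-binding head, had scaled log2 signals of 0.89, 0.017, -0.29 and 0.84 on monocrotaline replicates 1 to 4, against -1.32, -1.27, -1.70 and -1.30 on the saline replicates. The difference was 1.76 ± 0.29 (SE, n = 4 per group), or 3.39-fold. Nuf2, its partner in the head, had 0.32, -0.70, -1.10 and 0.043 on the monocrotaline arrays, against -2.44, -2.53, -2.48 and -2.19 on the saline arrays. Its difference was 2.05 ± 0.31 (SE, n = 4 per group), or 4.14-fold. Spc25, at the end that faces the inner kinetochore, had 1.51, 0.34, 0.18 and 1.32 on the monocrotaline arrays, against -1.28, -1.08, -1.18 and -0.88 on the saline arrays, a difference of 1.94 ± 0.31 (SE, n = 4 per group) or 3.85-fold. For all 3 subunits monocrotaline replicates 1 and 4 were high and 2 and 3 were lower, while the saline arrays lay close together, with SDs of 0.20 for Ndc80, 0.15 for Nuf2 and 0.17 for Spc25.

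Cenpf encodes CENP-F, a large coiled-coil protein of the outermost kinetochore layer that accumulates in G2. Its brighter probe had scaled log2 signals of -1.29, -2.38, -2.61 and -1.95 on monocrotaline replicates 1 to 4, against -3.06, -3.56, -3.42 and -2.73 on the saline replicates. Its other probe had -1.56, -3.12, -3.23 and -2.16 on the monocrotaline arrays, against -3.95, -3.75, -3.60 and -3.37 on the saline arrays. The probes gave differences of 1.14 ± 0.31 and 1.15 ± 0.37 (SE, n = 4 per group), or 2.20-fold and 2.22-fold. The groups did not overlap, but only 0.12 and 0.14 separated the lowest monocrotaline array (replicate 3) from the highest saline array (replicate 4), the narrowest gaps among the 10 probes. The other 8 probes had gaps of 0.68 to 1.39.

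Bub1 (chromosome 3) is a kinase that docks on KNL1 and brings further checkpoint proteins to the kinetochore. Its brighter probe had scaled log2 signals of 1.14, 0.48, 0.19 and 1.28 on monocrotaline replicates 1 to 4, against -0.82, -0.86, -0.85 and -0.49 on the saline replicates. The difference was 1.53 ± 0.26 (SE, n = 4 per group), or 2.88-fold. The other Bub1 probe stood well above background on all 4 monocrotaline arrays but on 0 of 4 saline arrays, which makes its difference a bound of at least 2.28-fold higher in monocrotaline. That bound sets each saline array no lower than its lowest signal well above background. Its measured signals were -5.95, -5.65, -6.00 and -4.85 on the monocrotaline arrays, against -7.13, -7.39, -7.64 and -6.92 on the saline arrays. Both probes thus separated the groups.

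Ttk, the kinase MPS1 that starts checkpoint signalling, had scaled log2 signals of 0.79, -0.28, -0.59 and 0.66 on monocrotaline replicates 1 to 4, against -1.78, -2.05, -1.89 and -1.44 on the saline replicates. The difference was 1.94 ± 0.33 (SE, n = 4 per group), or 3.82-fold. Mad2l1 encodes MAD2, which captures CDC20 in the inhibitory complex. It had 0.35, -0.46, -0.33 and 0.32 on the monocrotaline arrays, against -1.54, -1.38, -1.50 and -1.51 on the saline arrays, a difference of 1.45 ± 0.21 (SE, n = 4 per group) or 2.74-fold. Its saline SD of 0.073 was the smallest among the 10 probes.

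**Figure D2:**
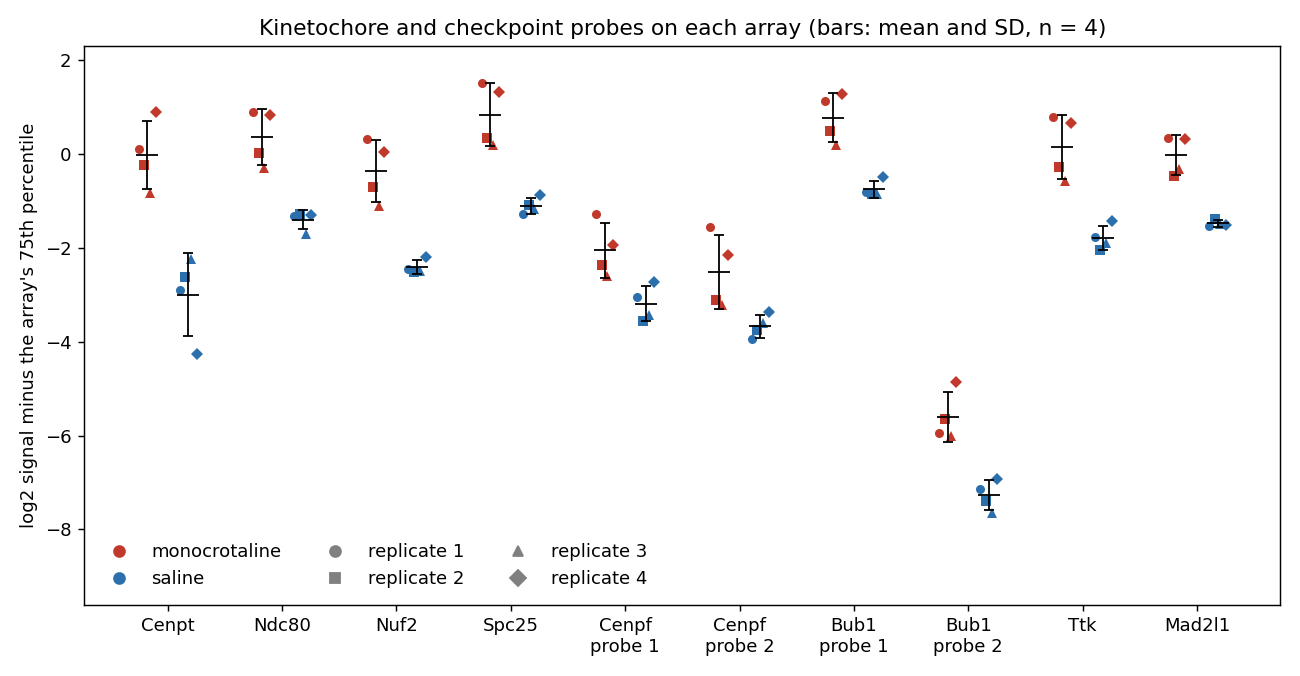
Scaled log2 signal of each member probe on each array, monocrotaline (red, left) and saline (blue, right) side by side, with marker shapes for replicates and bars for the mean and SD (n = 4). All 10 probes separate the groups, narrowly for both Cenpf probes, and saline replicate 4 lies apart for Cenpt.

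The monocrotaline arrays split the same way for the members. Monocrotaline replicates 1 and 4 lay above the monocrotaline mean and replicates 2 and 3 below it for 8 of 8 members, with mean deviations of 0.52, -0.36, -0.63 and 0.47 for replicates 1 to 4. Of all 19137 genes tested, 9.65% showed this split of the monocrotaline arrays, and of the 32 other kinetochore genes tested 24 did. The split was noticed in these data first, so its count in the members is a description. Monocrotaline replicate 3 was the lowest of its group for 9 of 10 probes, the exception being Mad2l1, where replicate 2 was lowest. The SD was larger among the monocrotaline arrays than among the saline arrays for 7 of 8 members, Cenpt being the exception (0.72 in monocrotaline and 0.88 in saline). Over all genes tested the monocrotaline SD was the larger in 59.2%. Within the saline group the order was less uniform: saline replicate 4 was the highest for 7 of 10 probes, but the lowest for Cenpt.

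Markers of other cell types also differed between arrays. All 16 T and NK cell markers had a higher mean in monocrotaline. For 12 of them all monocrotaline arrays lay above all saline arrays, as they did for 4.56% of all genes tested. In limma's test over all genes 3 of the 16 rose, against 1.37% of all genes. They were Cd247 with a log2 difference of 2.11 (adjusted p = 0.0261), Zap70 with 1.66 (adjusted p = 0.0304) and Cd8b with 1.67 (adjusted p = 0.0408). All 3 missed the threshold without monocrotaline replicate 1, 3 or 4 or saline replicate 1, 2 or 3, and Cd8b also without saline replicate 4, with differences of 1.41 to 2.27. Their summed scaled signal was 15.0 to 28.0 on the monocrotaline arrays and 3.70 to 8.56 on the saline arrays, in units of the 75th percentile signal, and all 16 were above background on at least some arrays. Averaged per array on the log2 scale, the T and NK markers exceeded their saline mean by 1.27, 0.92, 1.91 and 1.42 on monocrotaline replicates 1 to 4. The members exceeded theirs by 2.37, 1.49, 1.22 and 2.32. Within the monocrotaline group the T and NK markers were highest on replicate 3 and the members' mean was lowest there. On saline replicates 1 to 4 the T and NK markers were at 0.41, 0.097, 0.28 and -0.79. The members were at 0.00021, -0.026, -0.015 and 0.041 on those arrays. The 6 airway secretory and ciliated markers had 0 calls, and on the same scale they exceeded their saline mean by 2.86, 0.42, 3.00 and 0.71 on the monocrotaline arrays, most on replicates 1 and 3. They summed to 28.7 to 58.5 on the monocrotaline arrays and 45.3 to 60.3 on the saline arrays, a sum carried by Tppp3, whose difference was -0.54. The other 5, with differences of 1.64 to 3.14, summed to 1.89 to 23.9 on the monocrotaline arrays and 0.613 to 3.14 on the saline arrays. The 12 endothelial markers had 0 calls and 0 with a higher mean in monocrotaline, with a median difference of -0.56 and summed signals of 153 to 262 on the monocrotaline arrays and 238 to 340 on the saline arrays. The part of these cells in the members' difference was not tested.

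**Figure D3:**
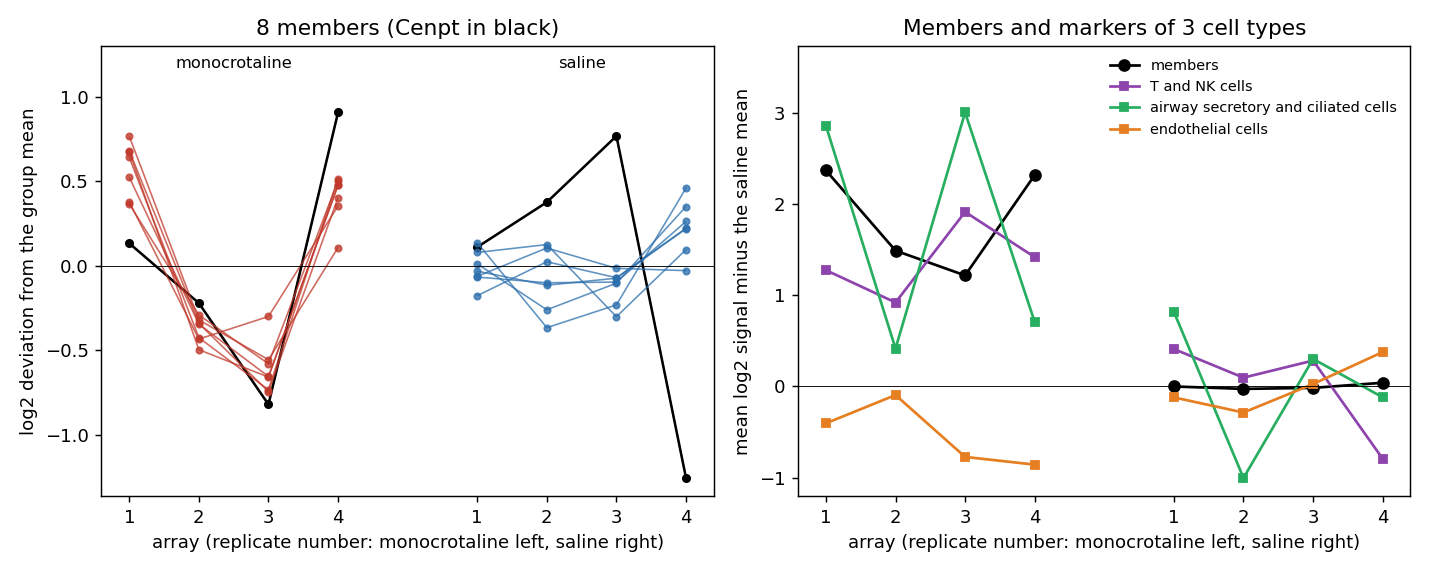
Left, deviation of each of the 8 members from its group mean on the log2 scale, per array, with Cenpt in black. Right, mean log2 signal over the saline mean of the members and of 3 marker lists, per array. Replicates have no order and lines only join the values of a gene or list. Members are high on monocrotaline replicates 1 and 4, airway markers on 1 and 3.

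Kinetochore genes outside the members were listed by role, 47 in all, of which 33 had a matched probe and 32 passed the filter on dim probes. The lists were chosen with earlier results of these data known, so their shares are a description and not a test of the lists. Of these 32, 17 rose and 0 fell in monocrotaline (limma, Benjamini-Hochberg adjusted p under 0.05 over 19137 genes), against 1.37% of all genes that rose and 0.0627% that fell. The difference was above 0 in 31 of the 32, and its median was 1.38 on the log2 scale. All 4 monocrotaline arrays lay above all 4 saline arrays for 26 of the 32, among them each of the 17, where 4.56% of all genes did so. The number that passed turned on single arrays. With monocrotaline replicate 1, 2, 3 or 4 left out it was 6, 16, 20 or 4, and with saline replicate 1, 2, 3 or 4 left out it was 0, 8, 4 or 8. One of the 17, Ska3, was above background on all 4 monocrotaline arrays but on 0 of 4 saline arrays, so it entered the test only through the group where it was high. Among genes above background on all 8 arrays, which leaves out Ska3, Cenpi and Cenpu, 14 rose.

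In the inner kinetochore, 5 of 7 measured genes of the constitutive centromere network rose, with a median difference of 1.59. Cenpu and Cenpq, of 1 complex that helps hold CENP-A chromatin, rose by 2.68 ± 0.46 and 2.02 ± 0.23 (log2 difference ± SE, n = 4 per group, limma adjusted p = 0.0328 and 0.0111). Cenpi, of the complex that links CENP-A chromatin to the outer plate, rose by 2.40 ± 0.36 (limma adjusted p = 0.0193). Cenpu and Cenpi were above background on 3 of 4 saline arrays. With normexp background correction, which adds an offset of 50 to each signal, their differences were 1.43 and 1.13. Neither passed there (limma adjusted p = 0.0801 and 0.0907). How far the offset narrows the differences of dim probes was not tested. Cenpq had scaled log2 signals of -1.09, -1.69, -2.05 and -1.10 on monocrotaline replicates 1 to 4, against -3.61, -3.61, -3.56 and -3.24 on the saline replicates, with replicates 1 and 4 the higher monocrotaline arrays here too. Cenpc, the scaffold of the inner plate, had a difference of 0.36 ± 0.12 and did not pass. Of 3 genes of CENP-A and its loading 1 rose, Mis18a, which prepares centromeres for new CENP-A, by 2.24 ± 0.31 (limma adjusted p = 0.0159). Cenpa itself had a difference of 1.11 ± 0.27 and did not pass (limma adjusted p = 0.116).

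In the outer kinetochore 3 of 5 genes rose, with a median of 1.35. Knl1, the scaffold for the BUB proteins, rose by 1.90 ± 0.26 (log2 difference ± SE, limma adjusted p = 0.015), and Dsn1 and Pmf1, both of the MIS12 complex, rose by 1.41 ± 0.20 and 1.16 ± 0.21. Zwint, a partner of KNL1, had a difference of 0.38 ± 0.10 and did not pass. Of 5 genes of the SKA complex and astrin, which hold the NDC80 complex to microtubules, 4 rose. Among them was Ska3, at least 2.38-fold higher on the processed signal, with saline arrays set no lower than their lowest signal above background. With normexp background correction and its offset of 50, Ska3 had a log2 difference of only 0.23 and did not pass (limma adjusted p = 0.619). The other genes that rose were Ska1 by 2.48 ± 0.34, Spag5 (astrin) by 1.87 ± 0.27 and Knstrn (kinastrin) by 1.54 ± 0.29. The median of that list was 1.54. Of 3 genes of the RZZ complex and its dynein adaptor 2 rose, Kntc1 (ROD) by 2.47 ± 0.27 (limma adjusted p = 0.0111) and Spdl1 (Spindly) by 1.12 ± 0.17, with a median of 1.12. Kntc1 had scaled log2 signals of -0.020, -0.69, -0.97 and 0.15 on the monocrotaline arrays, against -3.11, -2.91, -2.93 and -2.48 on the saline arrays, so the groups lay well apart. Of 4 genes of the chromosomal passenger complex 1 rose, Aurkb, the kinase that releases faulty attachments, by 1.74 ± 0.23 (limma adjusted p = 0.0135), and the list's median was 1.47. The rest of that list did not pass (limma adjusted p = 0.0801 to 0.104), with differences of 1.17 to 1.64 and no overlap between the groups.

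The other checkpoint genes had the lowest median among the 7 lists, 0.21, and 1 of 5 rose. That gene was Trip13, an ATPase that takes MAD2 out of its active shape, with a log2 difference of 1.98 ± 0.25 (SE) and a limma adjusted p of 0.0134. With normexp background correction and its offset of 50, the difference of Trip13 was 0.97 and did not pass (limma adjusted p = 0.0615). Its scaled log2 signals were -2.95, -3.74, -3.87 and -2.98 on monocrotaline replicates 1 to 4, against -5.09, -5.24, -5.59 and -5.56 on the saline replicates. Mad1l1, the kinetochore partner of MAD2, had 0.58, 0.56, 0.51 and 0.50 on the monocrotaline arrays, against 0.43, 0.61, 0.32 and 0.70 on the saline arrays. The groups overlapped, and the log2 difference was 0.025, with a 95% interval of -0.25 to 0.30. Bub3, the adaptor that carries BUB1 to kinetochores, had 0.21 (95% interval -0.064 to 0.48), and Mad2l1bp, which works with TRIP13, had -0.11 (-0.52 to 0.30). For these 3 genes the intervals exclude a change of 1 log2 unit either way. Cdc20, the target of the checkpoint, had a difference of 0.35 (95% interval -0.28 to 0.97), with scaled log2 signals of 0.20, -1.07, -1.10 and -0.64 on the monocrotaline arrays, against -0.93, -0.99, -1.08 and -0.98 on the saline arrays. Monocrotaline replicates 1 and 4 exceeded every saline array, replicate 2 lay within the saline range and replicate 3 just below it. These 4 genes, like Cenpc, Cenpa, Zwint and Ska3 above, were named after their values were seen, and whether the differences of Mad1l1, Bub3, Mad2l1bp and Cdc20 depart from those of Bub1, Ttk and Mad2l1 was not tested.

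Of the 14 called genes taken from these lists, at most 3 from each by size of difference, Cenpq, Kntc1 and Trip13 passed with any single array left out but saline replicate 1, where each had an adjusted p of 0.0521 (limma) with differences of 1.98, 2.39 and 2.08. Of the 14, 6, 12, 14 or 4 passed with monocrotaline replicate 1, 2, 3 or 4 left out, and 0, 7, 4 or 8 with saline replicate 1, 2, 3 or 4 left out.

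**Figure D4:**
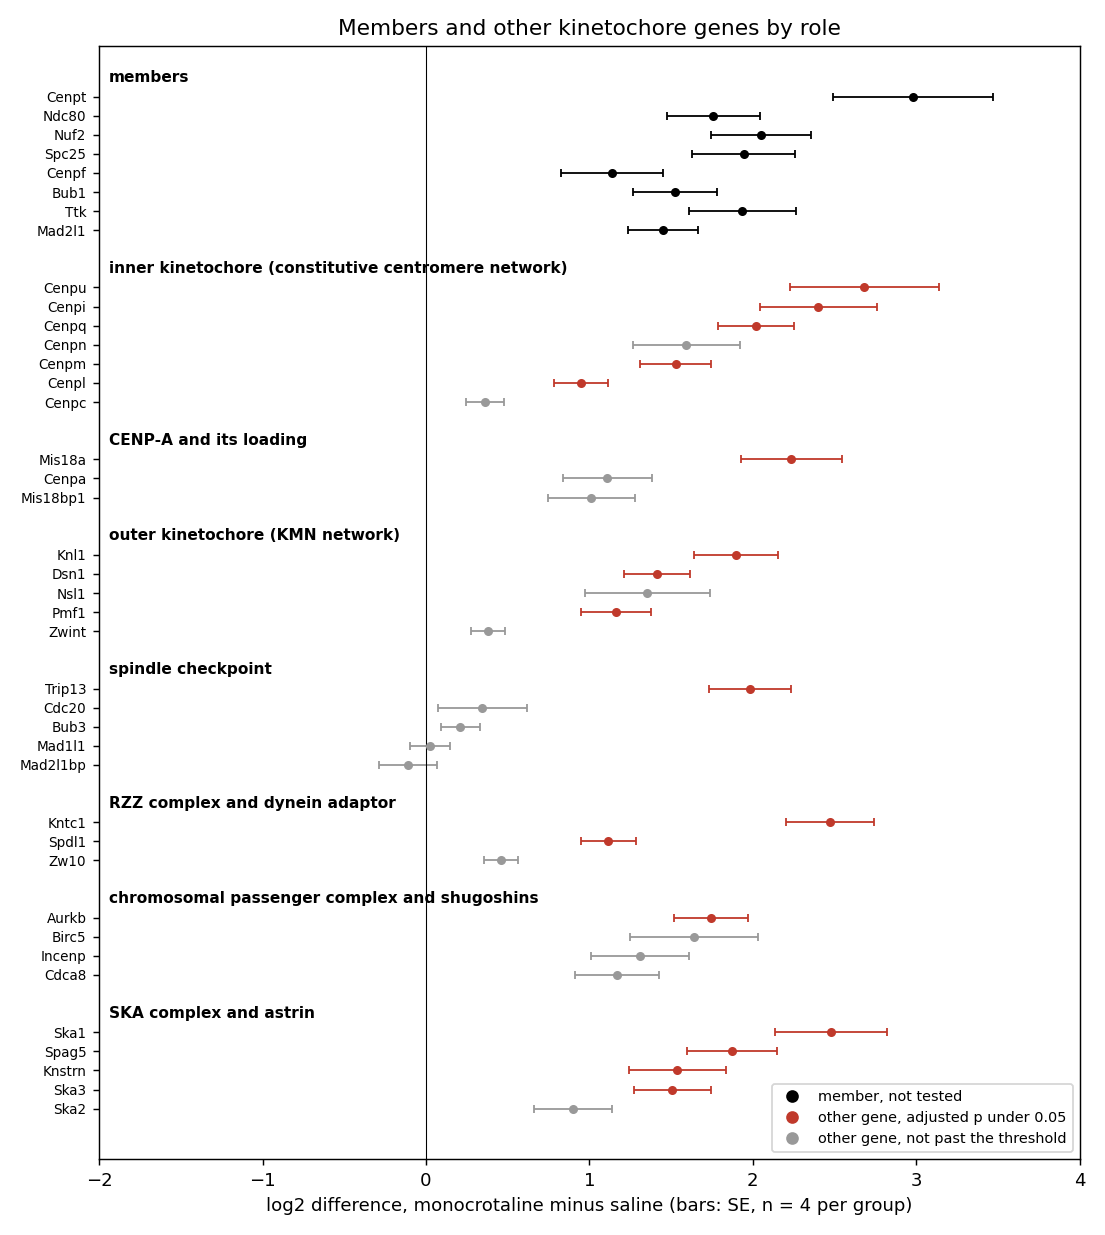
Log2 difference, monocrotaline minus saline, with its SE (n = 4 per group) for the 8 members (black) and the 32 other kinetochore genes by role, in red where the adjusted p is under 0.05 and in grey otherwise. The differences run from -0.11 (Mad2l1bp) to 2.98 (Cenpt), and 4 of the 5 other checkpoint genes lie between -0.11 and 0.35.

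The CHR letters were also counted in the promoters of the other kinetochore genes, of which 41 had a sequence: 25 of them (61.0%) held the CHR letters, 20 (48.8%) the CCAAT letters and 13 both. The E2F letters stood in 2 and the TATA letters in 2 of the 41.

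Outside these lists, tested genes with a symbol were ranked by how closely they followed the members' mean profile over the 8 arrays. Of the 19137 genes tested, 11443 had a symbol, and symbols starting with LOC or RGD were left out. Closeness was the root mean square distance between profiles centred on their own mean, and the nearest 5 genes are given. They were Ube2t, a ubiquitin-conjugating enzyme of the Fanconi pathway (distance 0.083 on the log2 scale), Kif11, the kinesin that pushes spindle poles apart (0.12), Kifc1, a minus-end kinesin of the spindle (0.12), Racgap1, of the central spindle (0.14), and Nusap1, a microtubule-bundling spindle protein (0.14). The median distance over all genes tested, with or without a symbol, was 1.06. Among the members, Ndc80, Spc25, Nuf2, Ttk, Bub1 and Mad2l1 lay within 0.13 to 0.25 of their mean profile, Cenpf at 0.44 and Cenpt at 0.82. The group difference makes up most of each profile, so this likeness is not independent of it.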

How the data were processed

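Total RNA was read on 8 one-colour Cy3 arrays, 4 per group, grouped by the sample titles. Per the file headers, Agilent Feature Extraction 10.7.3.1 gave each spot a processed signal, an intensity after background subtraction and spatial detrending, and flags (other values, 0 or 1). The submitters' processing notes name limma 3.6.9. Values in the deposited table are log2 values logged again: raising 2 to them gave the quantile-normalized log2 processed signal (median absolute difference 9.89e-10 over 62976 features), and in that form they served as an alternative. Each of its columns had a median of 3.02.

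Control spots (4259) and outlier-flagged spots were left out, spots of a probe were averaged, and log2 signals were scaled to the 75th percentile of each array. Probes were named by accession in a RefSeq table (18004 of 30350 matched). A probe was well above background on an array when at least 0.5 of its spots were marked so. For tests, probes well above background on at least 4 of 8 arrays (21652) were kept, and the brightest probe stood for its gene, giving 19137 genes. Monocrotaline was compared with saline with limma 3.58.1 in R 4.3.3 (two-sided, Benjamini-Hochberg adjusted p under 0.05). In simulated data it called 52% of changes of 1 log2 unit and 90% of changes of 2, so a gene that did not pass may still differ. The simulated noise was independent between probes, unlike patterns shared by genes on these arrays. Member probes are shown with no filter, all 8 members passing it anyway, and SEs come from the fit over all 30350 probes.

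The members, gene lists, motifs and tests were chosen with earlier results of these data known. Named genes are the members and up to 3 calls with the largest difference per kinetochore list (or the brightest gene where none was called). The 5 genes nearest the members' profile are named too, among genes with a symbol not starting with LOC or RGD. Cenpc, Cenpa, Zwint, Mad1l1, Bub3, Mad2l1bp, Cdc20, Ska3, Hjurp and the single markers were named after their values were seen. The alternatives were quantile normalization, normexp with an offset of 50 on the median spot signal (the files used here hold no mean spot signal), the deposited table, 2 filters, 2 ways to treat a gene's probes, trend with robust eBayes, a replicate block and leaving out arrays. Replicates are separate samples, per the labels, which describe each as cells from a rat. Where samples shared an animal, p-values would measure technical spread only.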

Additional observations from a re-analysis of the deposited data

Results flagged for a closer look

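Over 88 groups of 4 arrays examined, 5 held an array far from the other 3, and chance alone gives about 1 in 20. Ndc80 had a scaled log2 signal of -1.70 on saline replicate 3, against -1.32 to -1.27 on the other saline arrays. The brighter Bub1 probe had -0.49 on saline replicate 4, against -0.86 to -0.82 on the others. Cenpq had -3.24 on saline replicate 4, against -3.61 to -3.56. Zap70, a T and NK cell kinase, had -1.21 on saline replicate 4, against -0.28 to -0.20. The macrophage and monocyte markers, averaged on the log2 scale and set against their saline mean, were at -1.32 on monocrotaline replicate 2, with the other 3 monocrotaline arrays at 0.28 to 0.60.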

How the results depend on the processing

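Each of the 8 measured members and of the 14 kinetochore genes named by rule kept its direction under the alternatives that measured it (Cenpu and Cenpi were not tested with the filter on all 8 arrays). Of the 11 other genes followed, 2 turned with 1 array left out: Mad1l1 ran from -0.040 (without saline replicate 3) to 0.087, and was at -0.0034 without saline replicate 1, and Mad2l1bp ran from -0.25 to 0.022 (without monocrotaline replicate 4). The members' median difference stayed between 1.65 and 2.07, Cenpt's between 2.56 and 3.32 and Cenpf's between 0.83 and 1.32. Leaving out 1 array at a time, the genes that rose over all genes numbered 11 to 273 (262 with all arrays), those that fell 0 to 93 (12 with all arrays), the other kinetochore genes that rose 0 to 20 (17 with all arrays), and the members' median was 1.65 to 2.07. The 0 without saline replicate 1 was a fit with 3 saline arrays, and the cause of its size was not tested. Normexp background correction, with its offset of 50, gave 21 falls over all genes. It kept 12 of the 17 other kinetochore calls, without Cenpi, Cenpu, Pmf1, Ska3 (0.23) and Trip13. Without monocrotaline replicates 1 and 3, an alternative added after seeing the data, 51 genes rose and 1 fell, and 2 other kinetochore genes rose. That fit held 2 monocrotaline arrays, and the differences of the 14 kinetochore genes ran from 1.12 to 2.72 in it, against 1.12 to 2.68 with all arrays.

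The labels do not say whether replicate numbers pair the samples. Arrays with the same number shared a slide column, so the replicate block is also a block of slide column. Deviations from the group means correlated, across genes, at -0.015, -0.23, -0.33 and -0.20 for arrays with the same number. Deviations cancel within a group, so these correlations cannot settle whether same-numbered samples shared any handling. With the replicate block 0 genes rose, 0 fell and 0 other kinetochore genes rose, and no sample correlated best with its own number. At an unadjusted p under 0.05 with no block, 1286 genes were higher and 1383 lower. Under each alternative run, 0 other kinetochore genes fell. Of signals, only the dimmer Bub1 probe among the members lay at background in a group, and its size is given as a bound.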

Other observations

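Markers of further cell types gave 0 calls by limma over all genes. Their median log2 differences, monocrotaline minus saline, were 0.45 over 3 B and plasma cell markers tested, -0.043 over 6 of macrophages and monocytes, 0.86 over 3 of neutrophils, 1.98 over 6 of airway cells, 0.88 over 4 erythroid markers, 1.11 over 6 of fibroblasts and 0.37 over 5 of alveolar type 2 cells. The T and NK cell markers had a median of 1.42 over 16. Elane, a neutrophil protease, was not well above background on any array. Hjurp, the chaperone that deposits CENP-A, did not pass the filter: it was above background on 3 monocrotaline arrays and 0 saline arrays. Its mean was 2.03-fold higher in monocrotaline, with saline arrays set no lower than their lowest signal above background. The groups overlapped, with -6.49 on monocrotaline replicate 2 and -6.36 on saline replicate 2.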
